A study of Mus musculus with 9 samples.

Results

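The actin cytoskeleton and motility genes are 60 genes that encode actin, the proteins that assemble, cap, cut, bundle and pull on its filaments, and the small GTPases and kinases that steer them. They were taken by symbol from a fixed list with no filter on expression, and 59 of the 60 were among the 7197 genes of the deposited table. The one gene of the list that was not among the listed genes was Evl, which encodes a relative of the filament elongation factor Vasp. Neutrophils were sorted as CD45+, CD11b+ and Ly6G+ cells from bone marrow of mice aged 2 months, and their polyadenylated RNA was read by sequencing at transcript 3′ ends. The 9 libraries were 5 from Rragc+/+ and 4 from RragcS74N/+ animals, the former being the controls, with no treatment given in the labels. RragcS74N/+ mice carry 1 Rragc allele edited in the germ line with Cas9, so every tissue of the animal, and not the neutrophil alone, carries the active RagC variant. Which of the sorting instruments was used for which library, the sex of the animals and any batch are not given in the labels.

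Actin exists as free monomers and as filaments, and a neutrophil crawls by building filaments at its front and contracting them at its back. Thymosins hold monomers in reserve, profilin feeds them to growing ends, and cofilin with its partners takes old filaments apart. The Arp2/3 complex, switched on by WASP and WAVE proteins downstream of Rac and Cdc42, starts new branches, whereas RhoA and its kinases drive contraction by myosin II. Inherited defects of several of these genes, among them Was, Dock2, Dock8, Coro1a, Nckap1l and Wdr1, cause immune deficiency in humans.

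The reads recovered over all listed genes ranged from 1214295 to 1973957 per library, with the fewest in Rragc+/+ replicate 2. Ly6g, Itgam and Ptprc, which encode the sorted surface proteins, were all listed, and their summed level lay between 4963 and 5838 normalized counts in Rragc+/+ and between 4972 and 6159 in RragcS74N/+. None of the named markers of B cells, platelets or primary granules was listed. The 7 listed erythroid markers summed to between 1091 and 5609 normalized counts in Rragc+/+ and between 379 and 2158 in RragcS74N/+. Of the 7, 5 were lower in RragcS74N/+ at an unadjusted limma p-value under 0.05 (Hba-a1, Hba-a2, Hbb-bs, Hbb-bt and Alas2). Each of these had a limma adjusted p of 0.713, and 5.81% of all genes tested reached the unadjusted level. Car2 had a log2 difference of 0.58, and Slc4a1 was below the mean level needed for testing. The 4 eosinophil and basophil markers listed summed to between 52.5 and 136 normalized counts in Rragc+/+. They summed to 218 and 216 in RragcS74N/+ replicates 2 and 4, whereas replicates 1 and 3 lay within the Rragc+/+ range. Of these markers only Prg2, which encodes a granule protein of eosinophils, reached an unadjusted limma p-value under 0.05. Its log2 difference was 1.38 (limma adjusted p = 0.713). Epx had a log2 difference of 1.10 and Siglecf one of -0.14, and Ccr3 was below the mean level needed for testing. The 2 monocyte markers listed, Csf1r and Ly6c2, summed to between 2202 and 3420 and between 2211 and 3990. Most of this sum was Ly6c2, with a log2 difference of 0.00081. Csf1r measured 177 ± 100 normalized counts in Rragc+/+ (SD, n = 5) against 102 ± 25.4 in RragcS74N/+ (SD, n = 4). Its log2 difference was -0.66 (limma adjusted p = 0.713). Rragc itself measured 71.0 ± 10.3 normalized counts in Rragc+/+ (SD, n = 5) against 65.8 ± 9.52 in RragcS74N/+ (SD, n = 4). In these bulk samples fewer cells of a type and less RNA per cell cannot be told apart, and the part of the other cells in the values below was not tested.

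The share of the normalized counts of all listed genes taken by the 59 genes differed between genotypes by less than the spread between replicates. Their summed share of all normalized counts was 6.34, 6.01, 6.17, 5.94 and 5.87% in Rragc+/+ replicates 1 to 5 and 5.69, 6.15, 6.31 and 6.03% in RragcS74N/+ replicates 1 to 4. The ranges overlapped, and the means differed by -0.021 percentage points (RragcS74N/+ minus Rragc+/+). The sign of this difference was not stable, since leaving out 1 library gave -0.11 to 0.098. Tmsb4x alone differed by 0.342 percentage points and the other genes together by -0.363, each with overlapping ranges. Expression was concentrated in a few genes, since Actb and Tmsb4x together made up 36.8% of the summed level and the 6 highest genes 58.9%. Because a 3′-end library yields reads from the end of each transcript, counts are not divided by length here, although priming and mapping still differ between genes. The median level of the 59 genes was 544 normalized counts, against 53.5 for the 6673 genes tested, so the genes were mostly abundant, with Limk2 at the bottom and Actb at the top, at a mean of 15433.

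No gene of the actin cytoskeleton passed the adjusted threshold between genotypes. By limma on log2(value + 1), 0 of the 59 genes were called at 0.05 after Benjamini-Hochberg adjustment over all genes tested, where 0.0% of all genes tested passed, and the smallest adjusted p-value among the 59 was 0.713. At an unadjusted p-value under 0.05, 1 of the 59 genes, Rhog, was lower in RragcS74N/+ and 0 were higher, against a background of 5.81% of all genes tested, 3.81% lower and 2.01% higher. The quasi-likelihood test of edgeR and DESeq2, both run on recovered reads, also called 0 of the 59 genes, and each gave 3 at an unadjusted p-value under 0.05 (Arpc4, Rhog and Tln1, all lower), where 6.89% of all genes in edgeR and 6.7% in DESeq2 reached it. Without Rragc+/+ replicate 5 limma gave 10 of the 59 genes at this level, 7 lower and 3 higher, beside 914 genes in all, and without Rragc+/+ replicate 2 it gave 0 beside 201, with 0 passing the adjusted threshold in either case. For 0 of the 59 genes were the genotypes free of overlap, where 1.69% of all genes tested were, 1.02% lower and 0.674% higher. The log2 difference was negative for 33 genes and positive for 26, with a median of -0.05 over the 59 genes and 0.024 over all genes tested.

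The precision was enough to bound most of these differences. For 53 of the 59 genes the 95% interval of the log2 difference lay within -1 and 1, and for 21 it lay within -0.5 and 0.5. The 6 genes with wider intervals were Pfn1, Tmsb4x, Arpc4, Rhog, Dock2 and Elmo1. Rhoa, which encodes the GTPase that drives contraction, had the smallest within-genotype spread, with an SD of 0.0838 on the log2 scale, and its interval was -0.36 to 0.23.

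**Figure D1:**
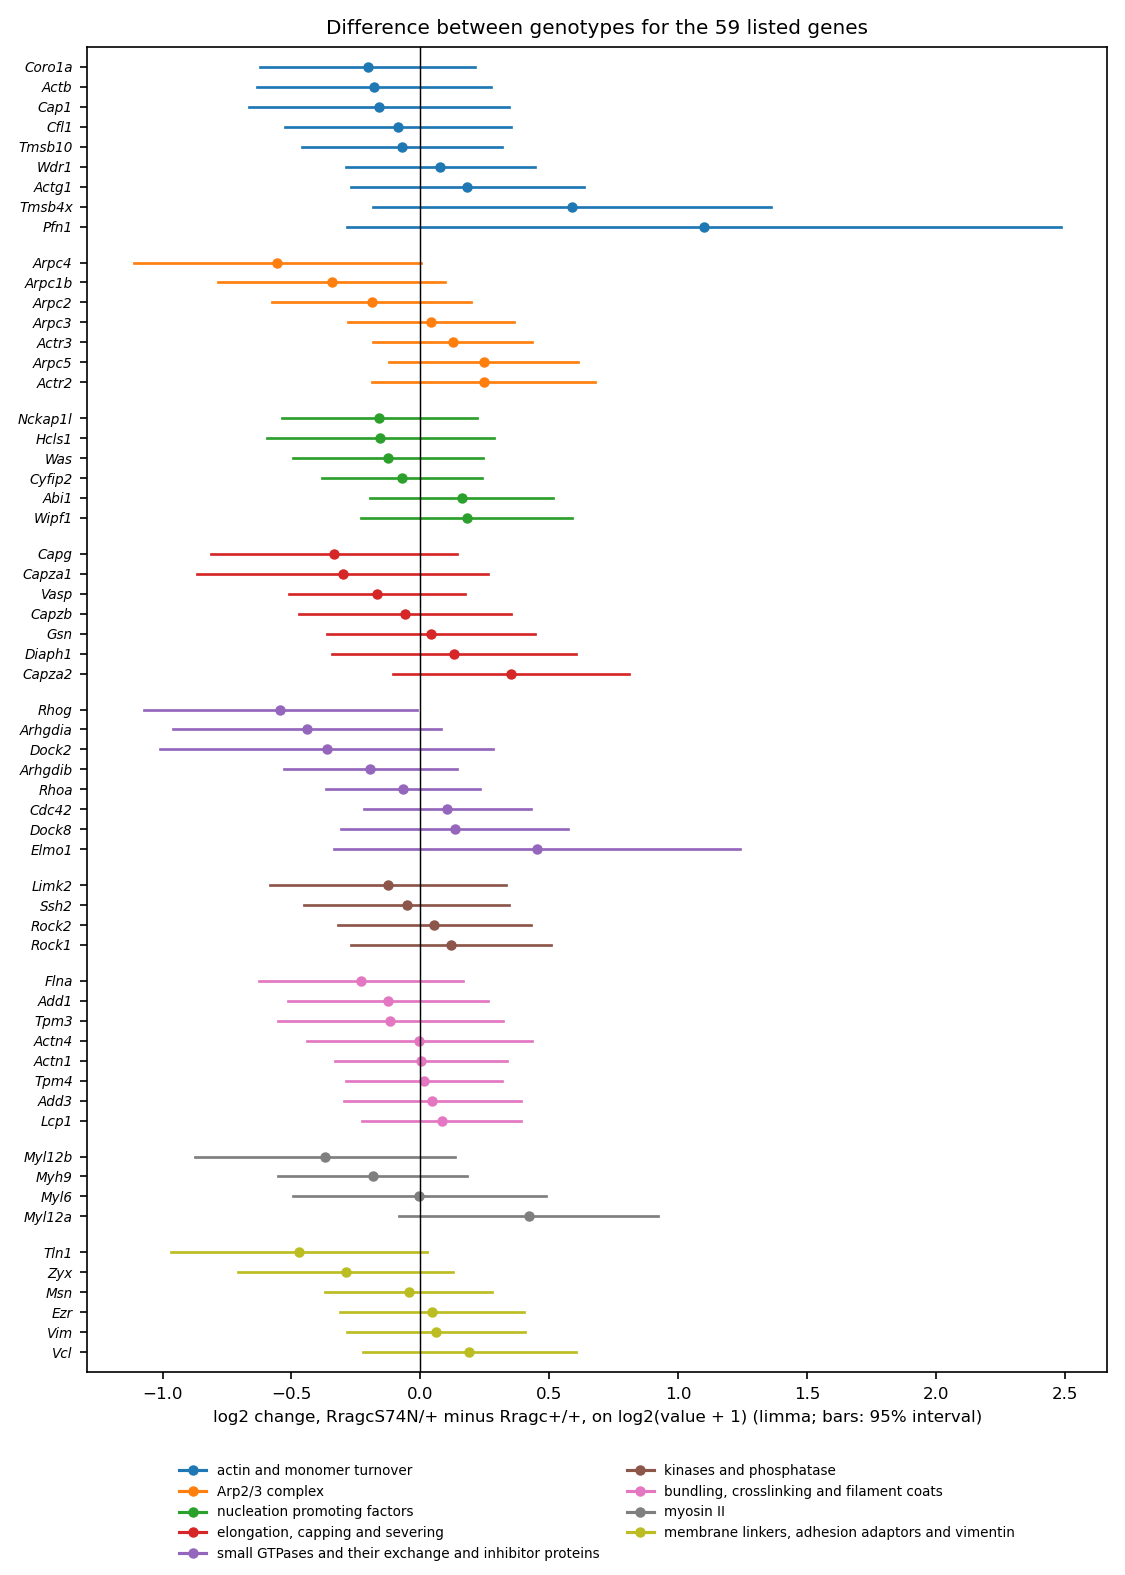
Log2 difference between genotypes (RragcS74N/+ minus Rragc+/+, on the log2(value + 1) scale, x axis) for each of the 59 listed genes (rows, colored by role); points are limma estimates and bars their 95% intervals. Each bar but that of Rhog crosses 0, and Pfn1 has the widest bar.

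Many actin genes are targets of SRF, a transcription factor that binds the CArG box and is kept in check by free actin through its cofactor Mrtfa. The promoters of the group were therefore searched for this motif in the 250 bases before the annotated start, using RefSeq sequences of the assembly GRCm38.p6, which is not the assembly of the alignment. Promoters were matched by symbol for 55 of the 59 genes, and the 4 without an entry were Actb, Nckap1l, Diaph1 and Rock1. A CArG box (a degenerate motif whose pattern is its own reverse complement, so that both strands are searched at once) was found for 4 of the 55 genes, or 7.27%, against 1.62% of all 27025 genes with a promoter entry and 1.41% of the listed genes with one. The matches are shown 5′ to 3′ on the strand of the gene, because they are what these 4 promoters share, with the CArG box in capitals.
Actg1: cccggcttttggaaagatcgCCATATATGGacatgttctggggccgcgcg
Vcl: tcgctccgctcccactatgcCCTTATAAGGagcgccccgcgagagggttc
Myl6: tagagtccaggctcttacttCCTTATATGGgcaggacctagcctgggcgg
Arpc4: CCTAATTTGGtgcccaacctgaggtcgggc
The Actg1 stretch is chr11:120348556-120348605 on the minus strand, with its box 90 to 81 bases before the start. That of Vcl is chr14:20929151-20929200 on the plus strand, with the box 227 to 218 bases before the start. Myl6 has its box 50 to 41 bases before the start, in chr10:128493030-128493079 on the minus strand. For Arpc4, at chr6:113377863-113377892 on the plus strand, the box opens the window, 250 to 241 bases before the start. The log2 differences between genotypes of these 4 genes were 0.18, 0.19, -0.0043 and -0.56, in the same order, and had no common sign. A match is a description of the letters, the shares were not compared by a test, and binding was not measured. Srf itself was not among the listed genes.

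Actin itself and the proteins that store and recycle its monomers held the most abundant genes of the group and the most variable one, Pfn1. Of these 9 genes, 5 had a lower and 4 a higher estimate in RragcS74N/+, and 0 passed the adjusted threshold in limma. Actb, which encodes β-actin, measured 14368, 21591, 18829, 16533 and 10749 normalized counts in Rragc+/+ replicates 1 to 5 and 11939.7, 16711, 15235 and 12941 in RragcS74N/+ replicates 1 to 4. The highest and the lowest Actb level both fell in Rragc+/+, so the RragcS74N/+ range lay inside that of the controls. The log2 difference of Actb was -0.18 with a standard error of 0.21 (limma adjusted p = 0.794). Actg1, which encodes the closely related γ-actin and whose promoter holds a CArG box, measured 5604, 2732, 3903, 4647 and 4445 normalized counts in Rragc+/+ and 3677, 4722, 5195 and 5464 in RragcS74N/+. Its log2 difference had the opposite sign to that of Actb, 0.18 with a standard error of 0.21 (limma adjusted p = 0.793). Without Rragc+/+ replicate 2 the differences were -0.07 for Actb and 0.031 for Actg1. They were -0.32 for Actb without Rragc+/+ replicate 5 and 0.30 for Actg1 without RragcS74N/+ replicate 1. The coding sequences of these genes are near-identical, so the split of reads between them is uncertain wherever reads reach into the coding part.

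Tmsb4x, which encodes thymosin β4, the main monomer store of blood cells, ranged more widely. It measured 14350.0, 5750.1, 11809.6, 7293 and 22491 normalized counts in Rragc+/+ and 10966, 19488, 13450.0 and 25775 in RragcS74N/+. Levels were lowest in Rragc+/+ replicates 2 and 4 and highest in RragcS74N/+ replicate 4 and Rragc+/+ replicate 5, and the genotypes overlapped. On the log2 scale the difference was 0.59 with a standard error of 0.36 (limma adjusted p = 0.713). It was 0.35 without Rragc+/+ replicate 2 and 0.85 without Rragc+/+ replicate 5. Tmsb10, a second thymosin, was far less abundant, at 65.2, 81.8, 87.2, 73.2 and 95.2 normalized counts in Rragc+/+ and 63.7, 90.5, 79.8 and 72.1 in RragcS74N/+. Its values overlapped between genotypes, with a log2 difference of -0.07.

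Pfn1, which encodes profilin, had the largest spread of all 59 genes. Its level was 317, 23.4, 97.5, 24.9 and 233 normalized counts in Rragc+/+ replicates 1 to 5, a difference of 13.6-fold between replicates 1 and 2 of the same genotype, and these rest on 481 and 20 recovered reads. In RragcS74N/+ it was 201, 179.9, 148 and 208, so all 4 libraries lay within the Rragc+/+ range. The log2 difference of 1.10 had a standard error of 0.64 and a 95% interval of -0.28 to 2.48 (limma adjusted p = 0.713). Leaving out Rragc+/+ replicate 2 brought it to 0.65, and leaving out Rragc+/+ replicate 1 to 1.57. With array weights it was 1.20. Pfn1 reached an unadjusted limma p-value under 0.05 without Rragc+/+ replicate 1, without Rragc+/+ replicate 5 and with array weights. In these settings 9.64, 13.7 and 11.5% of all genes tested reached that level. On the recovered reads edgeR gave a log2 difference of 0.38 for this gene, with an unadjusted p-value of 0.522.

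The other genes of monomer turnover were steadier. Cfl1, which encodes the filament-severing protein cofilin, measured 952 ± 139.8 normalized counts in Rragc+/+ (SD, n = 5) against 917 ± 247 in RragcS74N/+ (SD, n = 4). Its helper Wdr1 measured 367 ± 58.5 and 386 ± 54.5. Cap1, which encodes a protein that recharges monomers with nucleotide, measured 249 ± 75.4 and 217 ± 41.9, and Coro1a, which encodes the hematopoietic coronin, 1835 ± 402 and 1575 ± 247 (all SD, n = 5 and n = 4). For each of these 4 genes the means differed by less than the larger of the SDs.

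**Figure D2:**
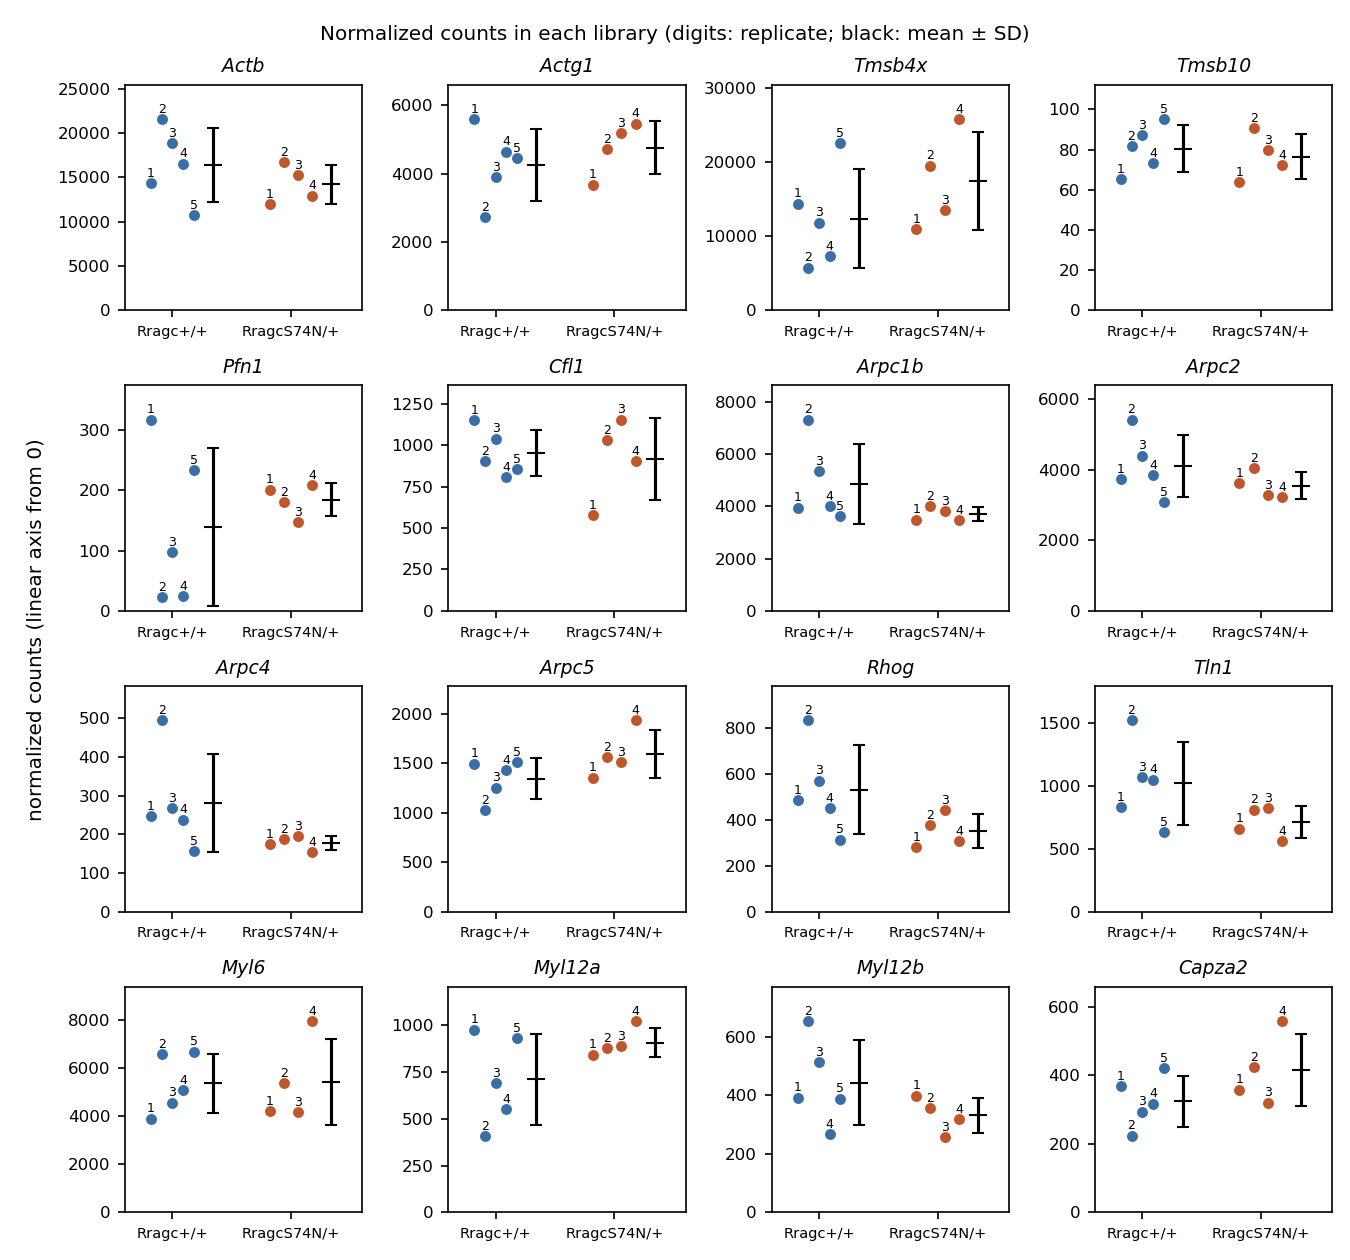
Normalized counts (y axes, linear from 0) of 16 of the genes in each library by genotype, with the replicate number beside each point and the mean ± SD in black (n = 5 and n = 4). Genotypes overlap in every panel, and Rragc+/+ replicate 2 is the highest Rragc+/+ point for Actb, Arpc1b, Arpc2, Arpc4, Rhog, Tln1 and Myl12b and the lowest for Actg1, Tmsb4x, Pfn1, Arpc5, Myl12a and Capza2.

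The Arp2/3 complex, which nucleates branched filaments, was listed with all 7 of its named subunits, and their estimates were divided, 3 lower and 4 higher. Its summed level was 12265 ± 2181 normalized counts in Rragc+/+ (SD, n = 5) against 10857 ± 493 in RragcS74N/+ (SD, n = 4). Arpc1b, the hematopoietic form of a subunit that helps hold the complex together, measured 3951, 7317, 5360.2, 4012 and 3624 normalized counts in Rragc+/+ and 3494, 4006, 3825 and 3466 in RragcS74N/+. All 4 RragcS74N/+ libraries lay below 3 of the 5 controls, and the ranges overlapped. Its log2 difference was -0.34 with a standard error of 0.21 (limma adjusted p = 0.713). It was -0.18 without Rragc+/+ replicate 2 and -0.44 without Rragc+/+ replicate 5. Arpc2 measured 3737, 5411, 4393, 3851 and 3083 normalized counts in Rragc+/+ and 3624, 4046, 3285 and 3217 in RragcS74N/+, again with replicate 2 of the controls on top. Its log2 difference was -0.19 with a standard error of 0.18 (limma adjusted p = 0.756).

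Arpc4, which encodes a core subunit bound to Arpc2 and also has a CArG box, was the subunit with the smallest p-value. It measured 247, 494, 268, 238 and 156 normalized counts in Rragc+/+ and 174, 188, 196 and 155 in RragcS74N/+. Replicate 5 of the controls, at the bottom of its genotype, lay within the RragcS74N/+ range. Its log2 difference was -0.56 with a standard error of 0.26, and it did not pass correction (limma adjusted p = 0.713). It was -0.33 without Rragc+/+ replicate 2 and -0.74 without Rragc+/+ replicate 5. Actr2 and Actr3, which encode the actin-related proteins that form the base of the branch, had log2 differences of 0.25 and 0.13. The smaller subunits Arpc5 and Arpc3 had 0.25 and 0.042. Mean levels of these 4 genes ran from 525 normalized counts for Actr3 to 1455 for Arpc5, and none passed the adjusted threshold in limma.

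The factors that switch Arp2/3 on had small differences of both signs. This set of 6 held Was, the hematopoietic WASP, its stabilizing partner Wipf1, the cortactin relative Hcls1, and Nckap1l, Cyfip2 and Abi1 of the WAVE complex. Mean levels ran from 259 normalized counts for Was to 600.3 for Cyfip2, and log2 differences from -0.16 for Nckap1l to 0.18 for Wipf1. Cyfip2 was among the steadiest genes, at 614 ± 57.9 (SD, n = 5) and 583 ± 38.6 normalized counts (SD, n = 4). None of the 6 passed the adjusted threshold in limma, and the smallest adjusted p-value among them was 0.777.

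Genes for filament elongation, capping and severing were also divided, 4 lower and 3 higher. Vasp, an elongation factor, measured 890.4 ± 82.4 normalized counts in Rragc+/+ (SD, n = 5) against 797 ± 121 in RragcS74N/+ (SD, n = 4), and the formin Diaph1 519 ± 143 and 554 ± 86.4. The capping protein is a dimer of an α subunit, encoded by Capza1 or Capza2, and the β subunit Capzb. Capza2 measured 367, 224, 294, 318 and 421 normalized counts in Rragc+/+ and 358, 423, 320.1 and 558 in RragcS74N/+. Replicate 2 of the controls was the lowest library and RragcS74N/+ replicate 4 the highest, and the genotypes overlapped. The log2 difference was 0.35 with a standard error of 0.21 for Capza2 (limma adjusted p = 0.713) and -0.30 with 0.26 for Capza1 (limma adjusted p = 0.744). Once the dependence of each library on the GC content of transcript ends was taken out, the Capza2 difference was 0.16 and that of Capza1 -0.43. Capzb, Capg and Gsn, of which the last encodes the severing protein gelsolin, had log2 differences of -0.06, -0.34 and 0.042 at mean levels of 544, 243 and 523 normalized counts. Capg encodes a single-subunit capping protein of phagocytes.

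Among the small GTPases and the proteins that load or hold them, Rhog carried the smallest p-value of all 59 genes. RhoG is a Rac-related GTPase that binds Elmo proteins and through them Dock exchange factors. Rhog measured 487, 833, 571, 453 and 314 normalized counts in Rragc+/+ and 282, 376, 443 and 306 in RragcS74N/+. Replicate 5 of the controls lay inside the RragcS74N/+ range, and the other controls lay above it. The log2 difference was -0.54 (standard error 0.25) at an unadjusted p-value of 0.0447 (limma adjusted p = 0.713). It was -0.36 without Rragc+/+ replicate 2 and -0.28 with the GC trend removed, and in neither case was the unadjusted p-value under 0.05. Without Rragc+/+ replicate 5 it was -0.71, at an unadjusted limma p-value under 0.05, where 13.7% of all genes tested reached that level.

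The classical GTPases Cdc42, which sets the direction of crawling, and Rhoa had log2 differences of 0.10 and -0.07. Cdc42 measured 1759 ± 179.8 normalized counts (SD, n = 5) and 1891 ± 198 (SD, n = 4), and Rhoa 731 ± 37.4 and 699 ± 45.7. Arhgdib, the hematopoietic inhibitor that keeps these GTPases in the cytosol, measured 1736, 2255, 1863, 1818 and 1711 normalized counts in Rragc+/+ and 1352, 1695, 1809 and 1714 in RragcS74N/+. Its scarcer relative Arhgdia measured 73.8, 129, 67.5, 81.2 and 54.1 and 42.4, 66.1, 66.3 and 56.4. Both were highest in Rragc+/+ replicate 2 and lowest in RragcS74N/+ replicate 1. The log2 difference of Arhgdia was -0.44 with a standard error of 0.24 (limma adjusted p = 0.713), and -0.025 with the GC trend removed. It ranged from -0.57 to -0.26 when 1 library was left out. Dock2, the main Rac exchange factor of neutrophils, measured 264, 591, 310.2, 244 and 225 normalized counts in Rragc+/+ and 411, 212, 222 and 163 in RragcS74N/+. One library of each genotype, Rragc+/+ replicate 2 and RragcS74N/+ replicate 1, stood above the rest. Its partner Elmo1 was low in Rragc+/+ replicate 2, at 196, 33.9, 84.4, 105 and 98.3 in Rragc+/+ against 103, 109, 129 and 161 in RragcS74N/+. The log2 differences were -0.36 for Dock2, 0.45 for Elmo1 and 0.13 for the Cdc42 exchange factor Dock8, which had a mean of 96.4 normalized counts, and the smallest of their limma adjusted p-values was 0.741. Without Rragc+/+ replicate 2 they were -0.13 for Dock2 and 0.11 for Elmo1. The largest on leaving out 1 library were -0.63 for Dock2, without RragcS74N/+ replicate 1, and 0.73 for Elmo1, without Rragc+/+ replicate 1.

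The kinases Rock1 and Rock2, effectors of RhoA, the cofilin kinase Limk2 and the cofilin phosphatase Ssh2 were split evenly by sign, and their log2 differences ran from -0.12 for Limk2 to 0.12 for Rock1. Rock1 was the major transcript of the pair, at 942 ± 154 normalized counts (SD, n = 5) and 1026 ± 209 (SD, n = 4). Limk2 was the scarcest of the 59 genes, at 52.0 ± 10.9 and 47.6 ± 10.3, and Rock2 and Ssh2 had means of 128 and 642.

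Genes for bundling and crosslinking proteins and for filament coats varied to different degrees, with within-genotype SDs on the log2 scale from 0.102 for Tpm4 and 0.107 for Lcp1 to 0.322 for Tpm3. Lcp1, which encodes the leukocyte bundler L-plastin, measured 2824, 2333, 2492, 2385 and 2199.7 normalized counts in Rragc+/+ and 2692, 2494, 2529 and 2617 in RragcS74N/+, so its highest library exceeded its lowest by 1.28-fold. For Lcp1 the log2 difference was 0.08 with a 95% interval of -0.22 to 0.39. The crosslinkers Flna, Actn1 and Actn4, the tropomyosins Tpm3 and Tpm4, and the adducins Add1 and Add3, which tie filaments to the membrane skeleton, had log2 differences from -0.23 for Flna to 0.047 for Add3, at mean levels from 81.0 normalized counts for Actn4 to 963 for Actn1. The intervals of all 8 genes in the set lay within -1 and 1, and none of the 8 passed the adjusted threshold in limma.

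Myosin II, the motor that contracts actin, is built from the heavy chain Myh9 and light chains. Myl6, the essential light chain, was the third most abundant of the 59 genes and measured 3896, 6568, 4556, 5085 and 6669 normalized counts in Rragc+/+ and 4199.8, 5379, 4157 and 7936 in RragcS74N/+. RragcS74N/+ replicate 4 was the highest library and Rragc+/+ replicate 1 the lowest. The log2 difference was -0.0043 with a standard error of 0.23 (limma adjusted p = 0.998), and its sign turned under several settings. Myl12a, a regulatory light chain, measured 978, 410.1, 691, 551 and 931 normalized counts in Rragc+/+ and 844, 879, 889 and 1023 in RragcS74N/+. The RragcS74N/+ libraries were close together, whereas the controls spread below and into their range. Its log2 difference was 0.42 with a standard error of 0.23 (limma adjusted p = 0.713). Myl12b, its near-identical relative, measured 392, 653, 515, 268 and 389 and 398, 356, 258 and 318 normalized counts in the same order, with a log2 difference of -0.37 (limma adjusted p = 0.713). Because of their similarity, the division of reads between Myl12a and Myl12b is uncertain wherever reads reach into the coding part, and the share of such reads was not measured. Myh9 measured 2282 ± 370.3 normalized counts (SD, n = 5) and 1996 ± 242 (SD, n = 4).

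Among genes that join filaments to membrane and integrins, Tln1 had the smallest p-value. Talin 1 couples integrins to actin and is needed for neutrophil arrest on vessel walls. Tln1 measured 829.8, 1521, 1068, 1049.9 and 633 normalized counts in Rragc+/+ and 660.4, 812, 825 and 559 in RragcS74N/+. Replicate 5 of the controls lay within the RragcS74N/+ range, and the other controls lay above it. This gave a log2 difference of -0.47 with a standard error of 0.23 (limma adjusted p = 0.713). It was -0.31 without Rragc+/+ replicate 2, -0.16 with the GC trend removed and -0.63 without Rragc+/+ replicate 5. Zyx and Vcl, which encode the adhesion proteins zyxin and vinculin, had log2 differences of -0.29 and 0.19. The cortex linkers Msn and Ezr had -0.045 and 0.045, and Vim, which encodes the intermediate filament protein vimentin, 0.06. Mean levels in this set ran from 114 normalized counts for Vcl to 1143 for Vim.

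Of the 9 libraries, Rragc+/+ replicate 2 stood apart most often. This library was the highest of the 9 for 19 genes and the lowest for 16, or 59.3% of the 59 genes, and for 49.7% of all genes tested it was likewise an extreme. Against the mean of the other Rragc+/+ libraries, 9 of the 59 genes were at least 1.5-fold higher in it and 7 at least 1.5-fold lower, or 27.1% of the group against 36.4% of all genes tested. Dock2 was 2.27 times and Arpc4 2.17 times the mean of the other controls there, Elmo1 0.28 times and Pfn1 0.139 times. Genes of one complex parted in this library, as Arpc4 and Arpc1b were high while Actr2 and Arpc5 were low, and Capza1 was high while Capza2 was low. Leaving this library out brought the log2 difference between genotypes nearer to 0 for 46 of the 59 genes and turned its sign for 6. These changes were not counted over all genes tested, so they cannot be read as particular to the group. No count of genes nearer to 0 was made for any other library left out. The changes therefore cannot be read as particular to this library either. Rragc+/+ replicate 2 was the library with the fewest recovered reads.

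The GC content of the last 500 nucleotides of the transcript moved with both patterns. Across the 59 genes the Spearman correlation of GC content with the log2 deviation of Rragc+/+ replicate 2 was 0.389, and across 6556 genes tested it was 0.324. With the log2 difference between genotypes it was -0.512 and -0.455, over the same genes. With this dependence removed the log2 difference lay nearer 0 for 35 of the 59 genes and not for 24. No such count was made over all genes tested. The log2 difference was then 1.16 for Pfn1, 0.56 for Tmsb4x, -0.49 for Arpc4 and -0.49 for Dock2, and its sign turned for 14 genes. The correlations are across genes, which share the 9 libraries and are not independent replicates, and their part in the differences was not tested. Because Rragc+/+ replicate 2 is also among the controls of the genotype difference, the correlations with the 2 patterns are not independent of each other. Arhgdia, Tln1 and Rhog, at 61.2, 56.8 and 55.0% GC, were among the richer ends, and Actr2 and Capza2, at 26.0 and 29.0%, among the poorer. Over all 59 genes the median within-genotype SD on the log2 scale was 0.276, against 0.309 for the 3475 tested genes at or above the lowest mean of the group. It ran from 0.0838 for Rhoa to 1.32 for Pfn1.

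**Figure D3:**
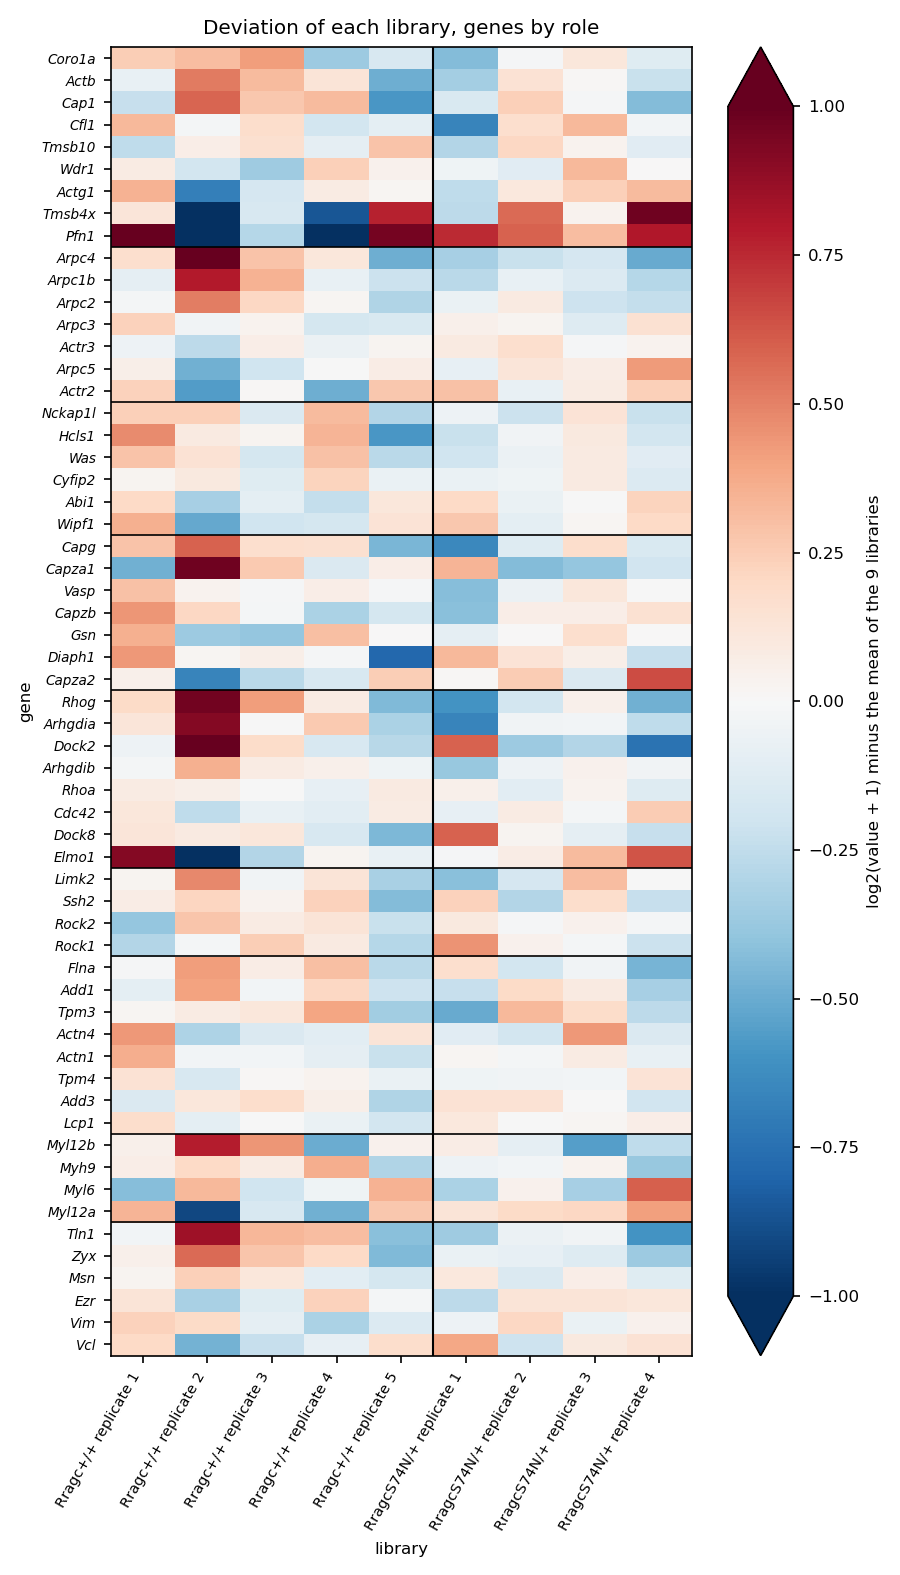
Deviation of each library (columns) from the mean of the 9 libraries on the log2(value + 1) scale for each of the 59 genes (rows, grouped by role, black lines), with red above and blue below the mean and the scale capped at -1 and 1. The column of Rragc+/+ replicate 2 holds deep colors of both signs, and no row is of one color in Rragc+/+ and the other in RragcS74N/+.

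Relative use of related genes was compared next, since a ratio within a library does not depend on its scaling. Of 9 pairs, 0 passed the adjusted threshold between genotypes (two-sided exact permutation tests, 126 arrangements), and the smallest adjusted p-value was 0.5. The smallest p-value such a test allows is 0.00794. The pair with the smallest p-value was Myl12b over Myl12a, with ratios of 0.401, 1.59, 0.745, 0.487 and 0.418 in Rragc+/+ and 0.472, 0.405, 0.29 and 0.311 in RragcS74N/+. Only Rragc+/+ replicate 2 had more Myl12b than Myl12a. The mean log2 ratio was -0.67 ± 0.83 in Rragc+/+ (SD, n = 5) against -1.46 ± 0.33 in RragcS74N/+ (SD, n = 4), with p = 0.0794 by the exact permutation test and 0.5 after adjustment.

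Tmsb10 made up a very small part of the thymosin transcripts, with ratios to Tmsb4x between 0.0028 in RragcS74N/+ replicate 4 and 0.0142 in Rragc+/+ replicate 2. The difference in log2 ratio, RragcS74N/+ minus Rragc+/+, was -0.66 (exact permutation test, p = 0.206, adjusted p = 0.5). Arhgdib exceeded Arhgdia by between 17.5- and 31.9-fold, with a difference in log2 ratio of 0.25 (exact permutation test, p = 0.206, adjusted p = 0.5). γ-Actin transcripts were the minor form in each library, with Actg1 to Actb ratios of 0.39, 0.127, 0.207, 0.281 and 0.413 in Rragc+/+ and 0.308, 0.283, 0.341 and 0.422 in RragcS74N/+ (p = 0.381 by the exact permutation test, adjusted p = 0.686). The remaining pairs were Rock2 over Rock1, Actr2 over Actr3, Actn1 over Actn4, Tpm3 over Tpm4 and Capza2 over Capza1. Their differences in log2 ratio were -0.06, 0.12, 0.007, -0.13 and 0.65, and the genotypes overlapped for each.

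**Figure D4:**
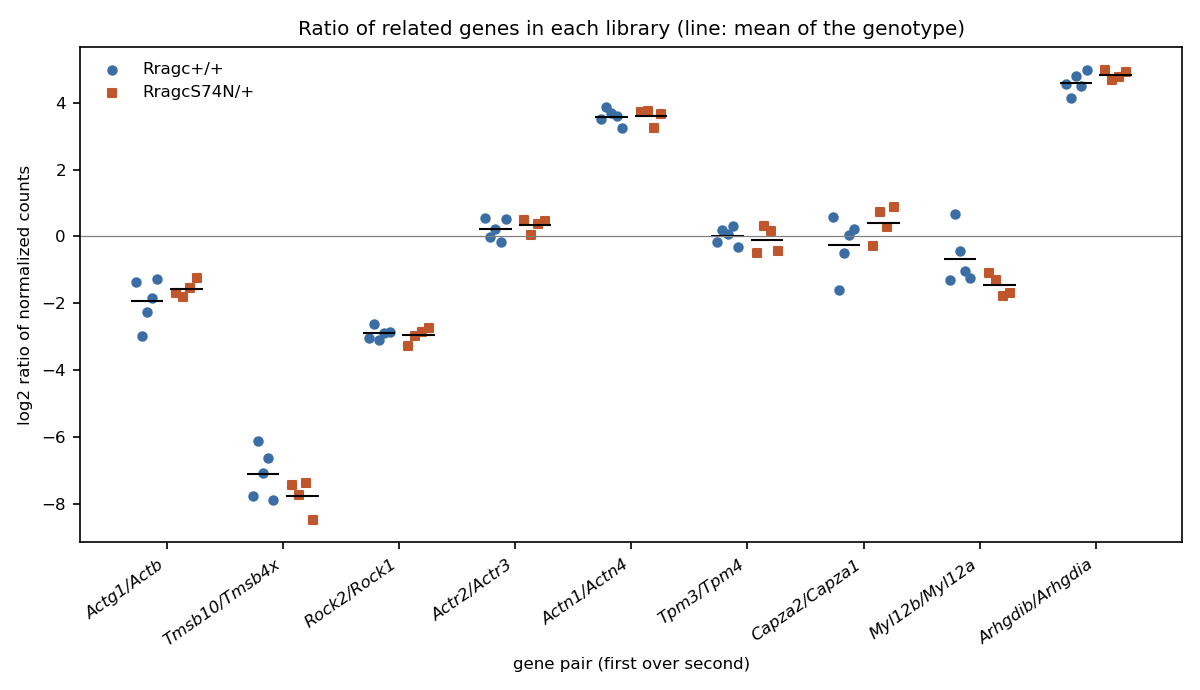
Log2 ratio of normalized counts (y axis) of 9 pairs of related genes (x axis, first over second) in each Rragc+/+ (circles, n = 5) and RragcS74N/+ library (squares, n = 4), with lines at the genotype means. Genotypes overlap for each pair, and the lowest Actg1/Actb and Capza2/Capza1 and the highest Myl12b/Myl12a points are Rragc+/+ replicate 2.

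In the wider pathway, too, no gene passed. Of 105 further genes of actin turnover, nucleation, GTPase signaling, motors and adhesion, 89 were listed and 86 tested, and 0 passed the adjusted threshold in limma. At an unadjusted p-value under 0.05, 2 were lower and 1 was higher in RragcS74N/+, against the background of 3.81% and 2.01%. The higher gene was Arhgap15, which encodes a brake on Rac, with 250.1 ± 61.6 normalized counts in Rragc+/+ (SD, n = 5) against 356 ± 91.5 in RragcS74N/+ (SD, n = 4) and a log2 difference of 0.50 (limma adjusted p = 0.713). The lower genes were Ilk, an integrin-linked adaptor, and Arhgap9, another GTPase-activating protein. Ilk measured 85.6, 154, 86.2, 76.4 and 64.2 normalized counts in Rragc+/+ and 57.7, 66.1, 58.0 and 66.9 in RragcS74N/+, and Arhgap9 563 ± 85.2 and 439 ± 31.9 (SD, n = 5 and n = 4). Their log2 differences were -0.51 and -0.35, both with a limma adjusted p of 0.713. Of the tested genes of this list, 44 had a lower and 42 a higher estimate, with a median log2 difference of -0.019.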

How the data were processed

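RNA of sorted bone marrow neutrophils was read in 9 libraries (5 Rragc+/+, 4 RragcS74N/+) made with a 3′-end kit and unique molecular identifiers. Alignment by the authors was to GRCm39, using TopHat2 2.0.10, Bowtie 1.0.0 and SAMtools 1.9, and reads were counted by strand with HTSeq 0.6.1. Whether identifiers were collapsed, how genes were filtered and how reads with several matches were counted are not given in the sources used here. The deposited values are a signal, read counts that the authors divided by 1 size factor per library. Whole reads were recovered for 100% of values (tolerance 0.01). Genotypes were compared with limma 3.58.1 in R 4.3.3 on log2(value + 1) for genes with a mean of at least 10, with trended variances and Benjamini-Hochberg adjustment over 6673 genes. Fold differences on this scale understate those of scarce genes. Count tests on recovered reads used edgeR 4.0.16 (quasi-likelihood) and DESeq2 1.42.0. The limma step was tested on simulated counts that held no GC trend and no library standing apart, so that test does not cover these features of the data. Values in each library are given for the 6 genes of highest mean, genes with an unadjusted p-value under 0.05, the 3 genes of each sign with the lowest p-values and the genes of the 3 pairs with the lowest p-values; values in each library of Elmo1, Dock2 and Lcp1 were added after they were seen. GC content came from GENCODE transcripts of GRCm38. The members and gene lists were chosen with earlier results of these data known. The study describes 5 young mice of each genotype; 4 RragcS74N/+ libraries were analysed here, and the labels do not number the animals.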

Additional observations from a re-analysis of the deposited data

Results flagged for a closer look

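In 6 of the 138 groups of values examined, 1 library lay far from the others of its genotype, with the gap to its neighbor taking most of the group's range (Dixon's criterion). For independent groups chance gives about 1 in 20, or 6.9 here. The groups share the same 9 libraries and are not independent, so no conclusion is drawn from this number. Vasp was high in Rragc+/+ replicate 1 at 1033 normalized counts. In Rragc+/+ replicate 2, Dock2 was high at 591 and Arhgdib at 2255 normalized counts. Actn4 was high in RragcS74N/+ replicate 3 at 107.7, Tpm4 was high in RragcS74N/+ replicate 4 at 763 and Ezr was low in RragcS74N/+ replicate 1 at 423. No explanation was tested.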

How the results depend on the processing

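The number of actin genes past the adjusted threshold was 0 of 59 in limma under each alternative, in edgeR and in DESeq2, and the smallest adjusted p-value of any of them was 0.326, without Rragc+/+ replicate 5. The number at an unadjusted p-value under 0.05, which is 1 in the report, was 2 with a pseudocount of 5, with no filter, with equal totals and with TMM scaling, 0 with a mean of at least 50, with no variance trend and with the GC trend removed, 3 in edgeR and in DESeq2, and 6 with array weights. The share of all genes at this level moved too, to 11.5% with array weights, 3.92% with the GC trend removed, 9.64% without Rragc+/+ replicate 1 and 13.7% without Rragc+/+ replicate 5. Leaving out 1 library gave 0 to 10. The 10 came without Rragc+/+ replicate 5, 3 came without Rragc+/+ replicate 1, and 0 without Rragc+/+ replicates 2 or 3 or RragcS74N/+ replicates 2 or 4; the cause was not tested. The number of genes with a lower estimate stayed between 30 and 36. Removing the GC trend was chosen after the data were seen.

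The Rock2 to Rock1 difference in log2 ratio ranged from -0.14 to 0.042 and that of Actn1 to Actn4 from -0.081 to 0.12 when 1 library was left out, so both turned sign. Myl6 turned sign at 0.060 with array weights, 0.013 in edgeR, 0.023 in DESeq2 and 0.24 after removing the GC trend, and ranged from -0.21 to 0.11 when 1 library was left out. Tmsb10 turned at 0.015 with array weights and 0.20 with the GC trend removed, with a range of -0.16 to 0.011. Myl6 and Tmsb10 are among the 16 genes followed by the rule for named genes, whose other 309 values under 20 alternatives kept direction and side of the threshold. Over all 59 genes, the sign turned under at least 1 alternative for 26, on leaving out 1 library for 20 and with the GC trend removed for 14. Without the 10 highest other genes in the total, the difference in summed share turned from -0.021 to 0.078 percentage points. No paired analysis was possible because libraries of the genotypes carry no shared numbers in the labels. Library depth, the unknown sorting instrument and the erythroid markers limit the comparison, and with 5 and 4 libraries the precision is that of the intervals given.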
